A study of Mus musculus with 9 samples.

Results

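The p200 genes of the mouse form a cluster on chromosome 1 and encode PYHIN proteins. Expression was described here for 10 of the 50686 genes in the deposited count tables, namely Ifi203, Ifi204, Ifi206, Ifi207, Ifi208, Ifi209, Ifi213, Mnda, Mndal and Aim2. They were chosen by name as genes of this cluster and matched to the tables by gene identifier. PYHIN proteins typically pair a pyrin domain, which binds other pyrin domains, with a HIN domain, which binds double-stranded DNA, although some members lack one of them. Aim2 senses DNA in the cytosol and recruits the adaptor ASC to activate caspase-1 in the inflammasome, whereas Ifi204 is known as a sensor that acts through STING. Many of these genes are induced by interferons, and Mnda takes its name from myeloid cells.

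The libraries came from BCR/ABLp185+ cells, bone marrow cells of C57BL/6N mice transformed with the BCR/ABL oncogene. The genotypes were wt, Stat5a-/- and Stat5b-/-, with 1 cell line and 3 technical replicates of each. All lines carried the oncogene, and the tests below compare 3 lines rather than 3 genotypes, since a difference between lines and an effect of the deleted gene cannot be told apart and the spread between libraries may be purely technical. STAT5A and STAT5B are related transcription factors downstream of BCR/ABL, and the study examined how they differ in cancer. The description field calls the knockout samples wild type, so titles and genotype labels were used instead. Libraries held between 11948136 and 19016396 counted reads. Levels of Stat5a averaged 43.1 ± 6.35 normalized CPM (SD, n = 3) in wt, 12.4 ± 1.02 where Stat5a was deleted and 83.7 ± 10.2 where Stat5b was deleted, and those of Stat5b averaged 105.5 ± 1.96, 141.7 ± 15.9 and 63.4 ± 7.72. Each gene was therefore lowest in the line named for its deletion, with reads remaining there. Normalized CPM are counts scaled to a common effective library size. B-cell markers were abundant in all 9 libraries, with a sum over 9 genes of 4715 to 4927 normalized CPM in wt, 6285 to 6850 in Stat5a-/- and 5842 to 6558 in Stat5b-/-. The sum of 4 NK-cell markers was 13.86 to 16.01 in wt and 9.74 to 12.5 over the knockout libraries. Of these only Klrb1c and Prf1 had enough reads to be tested, and they went opposite ways. In Stat5b-/- against wt, 1 was higher and 1 lower by over 2-fold, as were 10.6% and 8.44% of all genes tested. Of the B-cell markers, Rag1 fell to under 1 normalized CPM in both knockout lines. The libraries also held reads of 16 T-cell marker genes, all of them detected in every library, whose summed normalized CPM ranged from 863 to 1175 in wt, from 1514 to 1750 in Stat5a-/- and from 1906 to 2715 in Stat5b-/-. Of 12 myeloid markers, summed at 4.85 to 7.52 normalized CPM in wt, 7.57 to 9.51 in Stat5a-/- and 12.6 to 15.7 in Stat5b-/-, only Lyz2, Csf1r and Fcgr3 had enough reads to be tested, and the granulocyte genes Elane, Cebpe and Mpo had 0 reads in 7 or 8 of the 9 libraries.

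The 10 members lay within 591.8 kb of chromosome 1, from 173350879 to 173942672 of GRCm38, in the order Aim2, Ifi206, Ifi213, Ifi209, Ifi208, Ifi207, Ifi204, Mndal, Mnda and Ifi203. Aim2, Ifi208 and Ifi209 were on the plus strand and the others on the minus strand. Aim2 (ENSMUSG00000037860.15) spanned 173350879 to 173466040, Ifi206 (ENSMUSG00000037849.8) 173468485 to 173491041, and Ifi213 (ENSMUSG00000073491.10) 173566284 to 173599274. Ifi209 (ENSMUSG00000043263.13) spanned 173630917 to 173647928, Ifi208 (ENSMUSG00000066677.11) 173673675 to 173698392, and Ifi207 (ENSMUSG00000073490.10) 173723430 to 173741809. Ifi204 (ENSMUSG00000073489.5) spanned 173747293 to 173766943, Mndal (ENSMUSG00000090272.7) 173857220 to 173942491, and Mnda (ENSMUSG00000026536.9, listed as Ifi211) 173896345 to 173913046. Ifi203 (ENSMUSG00000039997.16) spanned 173920407 to 173942672. The Mndal model contains Mnda whole and overlaps most of Ifi203, with which it has 37 exonic bases in common. The genes arose by duplication and remain alike, which bears on how surely a 50-base read is assigned. In the annotated transcripts, 72.8% of the 50-base stretches of Mnda were also found in another gene, 33.7% of those of Ifi209 (nearly all in Ifi214), 25.6% in Ifi206, 20.9% in Ifi208, 20.0% in Ifi204, 19.6% in Mndal, 15.6% in Ifi213, 12.4% in Ifi203 and 7.3% in Ifi207, against 0.7% in Aim2. Reads from such stretches map to several places and were dropped from the counts, so the level of Mnda is the least certain and that of Aim2 the most.

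Promoter sequences are shown because most members rose together while Aim2 fell. RefSeq promoters of 300 bases, 250 before and 50 after the transcription start (GRCm38.p6), were given for 9 of the 10 members, all but Ifi204. Both strands were searched for GAAANNGAA, a short form of the element bound by interferon-activated STAT and IRF factors, and TTCNNNGAA, the palindromic form bound by STAT dimers, with each motif counted independently of any overlap with the other. The first was found in 7 of these 9 members and in 8.56% of all 32851 promoters, and the second in 0 of 9 members and in 8.30% of all promoters. The 9 members had 11 promoters, and a member was counted if any of its promoters matched, whereas the share of all is per promoter. Another promoter of Ifi203 had no match. In the windows of 60 bases printed here 5′ to 3′ along the gene, capitals mark the GAAANNGAA match or, in Ifi209, the corresponding bases.
Ifi203 (chr1:173942493-173942552, minus strand): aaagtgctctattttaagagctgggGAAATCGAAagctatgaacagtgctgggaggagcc
Ifi206 (chr1:173491324-173491383, minus strand): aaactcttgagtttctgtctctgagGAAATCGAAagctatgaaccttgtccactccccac
Ifi207 (chr1:173741816-173741875, minus strand): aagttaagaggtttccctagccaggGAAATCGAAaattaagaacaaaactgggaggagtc
Ifi208 (chr1:173673582-173673641, plus strand): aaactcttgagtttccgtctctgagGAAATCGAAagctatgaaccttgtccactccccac
Mnda (chr1:173913049-173913108, minus strand): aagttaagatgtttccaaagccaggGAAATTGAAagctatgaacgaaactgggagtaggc
Ifi209 (chr1:173630755-173630814, plus strand): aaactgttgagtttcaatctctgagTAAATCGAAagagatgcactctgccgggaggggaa
Ifi214 (chr1:173536002-173536061, minus strand): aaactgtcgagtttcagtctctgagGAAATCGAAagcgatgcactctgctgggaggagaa
Ifi214, a gene of the same cluster that was not among the 10, is given to compare with Ifi209. The Ifi213 window was identical to that of Ifi208 in 60 of 60 bases, and Ifi206 had 59 of 60. A window of Mndal was likewise identical to that of Ifi203. Counted from the first capital base, with Ifi214 as the reference, Ifi209 carried G1T, and hence had no match. The matches of the members began 35 to 73 bases before the start. Aim2 had no match for either motif, and 200 bases of its promoter, beginning 250 bases before the start, are shown without capitals.
Aim2 (chr1:173420354-173420553, plus strand): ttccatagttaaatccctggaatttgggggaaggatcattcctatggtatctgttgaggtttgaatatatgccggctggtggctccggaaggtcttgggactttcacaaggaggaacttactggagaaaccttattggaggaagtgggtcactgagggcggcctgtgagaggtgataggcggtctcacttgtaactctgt
A match describes letters only, and binding was not measured.

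In the Stat5b-/- line against wt, 8 of the 9 members with enough reads to be tested rose and Aim2 fell. The rises ran from 1.76-fold for Ifi209 to 4.19-fold for Ifi204, and Aim2 was 2.81-fold lower. Past an adjusted p of 0.05 (edgeR quasi-likelihood test, Benjamini-Hochberg over 13852 genes), 24.2% of all genes tested were higher in this comparison and 22.0% lower, and 6 of the 9 members were higher and Aim2 lower by over 2-fold, as were 10.6% and 8.44% of all genes. The 3 libraries of each line did not overlap for any of the 9, with 27.4% of all genes higher and 26.8% lower without overlap. The median log2 fold change of the 9 members was 1.33, against 0.023 over all genes tested. With the log2 share of T-cell marker reads as a covariate, 1 of the 9 members was called, Aim2, beside 1011 of all genes lower and 1093 higher. In the Stat5a-/- line against wt, 3 of the 9 rose (Ifi206, Ifi203 and Mndal), Aim2 fell and 5 were not called, beside 19.8% of all genes higher and 16.3% lower. At over 2-fold the calls were 0 of 9, with 7.75% of all genes higher and 6.49% lower. The libraries did not overlap for 4 higher members and Aim2, as for 25.5% of all genes higher and 23.7% lower. The median log2 fold change was 0.31, against 0.0099 over all genes. With the T-cell covariate 2 were called, Aim2 and Ifi213, both lower in the knockout line, as were 2007 of all genes, with 2293 higher. The count of 4 became 2 without wt replicate 1, without Stat5a-/- replicate 1 or without Stat5a-/- replicate 2. In Stat5b-/- against Stat5a-/-, 7 rose, Aim2 fell and Ifi209 was not called, while 16.4% of all genes were higher and 17.5% lower. By over 2-fold, 4 were higher and 0 lower (4.81% and 6.60% of all genes). The libraries did not overlap for the 7 that rose and for Aim2, as for 22.3% of all genes higher and 22.5% lower. With the T-cell covariate Aim2 was again the 1 member called, beside 1161 of all genes lower and 878 higher. The 3 comparisons share libraries and are not independent of each other.

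**Figure D1:**
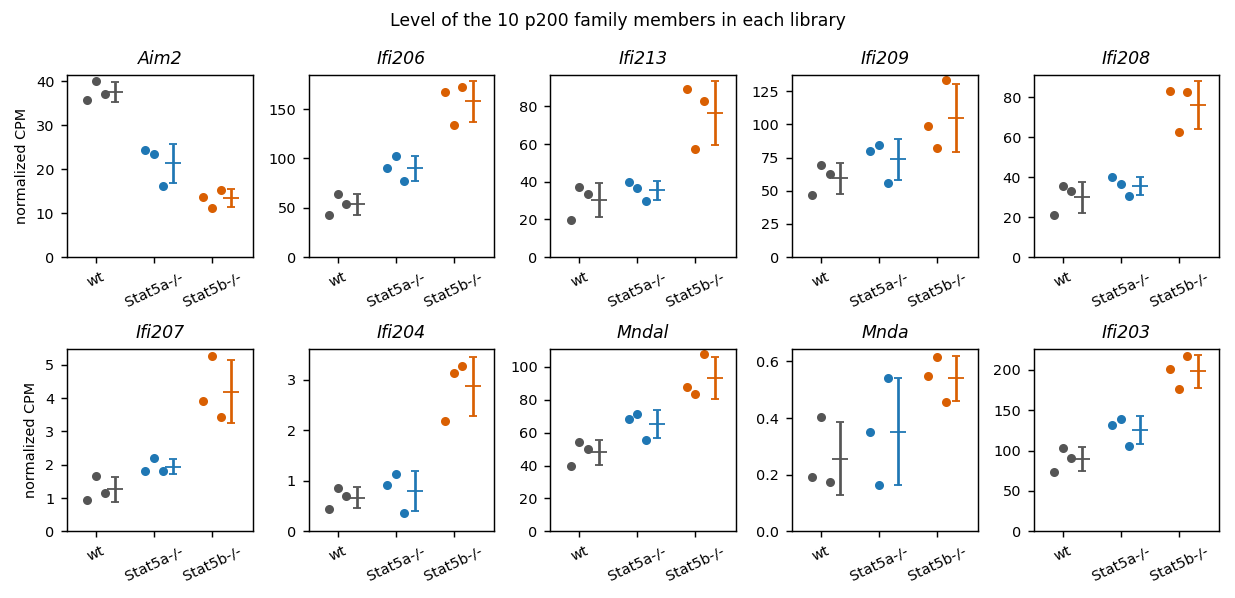
Normalized CPM (vertical axes, from 0) of the 10 members in the wt, Stat5a-/- and Stat5b-/- libraries. Points are the 3 technical replicates of each line, and the bar beside them is the mean ± SD. Aim2 was highest in wt, while the other members had their highest mean in Stat5b-/-.

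Aim2, the DNA sensor of the inflammasome, was the member that fell. Its libraries had 35.6, 40.0 and 37.1 normalized CPM in wt, 24.3, 23.4 and 16.2 in Stat5a-/- and 13.6, 11.2 and 15.3 in Stat5b-/-. The 3 lines did not overlap, and the order was wt, Stat5a-/-, Stat5b-/-. In raw counts the gene had 561 to 793 reads in wt libraries and 164 to 201 in Stat5b-/- libraries. The log2 fold change against wt was -0.82 (SE 0.16, edgeR adjusted p = 0.00108) in Stat5a-/- and -1.49 (SE 0.16, edgeR adjusted p = 6.84e-06) in Stat5b-/-. Stat5b-/- lay below Stat5a-/- by a log2 fold change of -0.67 (SE 0.16, edgeR adjusted p = 0.00686). Aim2 went down while the T-cell marker reads went up, and with the T-cell covariate its log2 fold change was -1.21 (edgeR adjusted p = 0.00078) for Stat5a-/- and -2.35 (0.00138) for Stat5b-/- against wt, and -1.14 (0.0057) between the knockout lines.

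Ifi206 lies next to Aim2 on the opposite strand. Its libraries had 42.3, 64.0 and 54.1 normalized CPM in wt, 90.2, 102.4 and 77.1 in Stat5a-/- and 167.0, 134.4 and 172.1 in Stat5b-/-. Again the 3 lines did not overlap, in the reverse order to Aim2. The log2 fold change was 0.75 (SE 0.16, edgeR adjusted p = 0.00214) in Stat5a-/- and 1.56 (SE 0.16, edgeR adjusted p = 4.01e-06) in Stat5b-/- against wt, and 0.81 (edgeR adjusted p = 0.00146) between the knockout lines. This was the greatest rise of the members in Stat5a-/-. With the T-cell covariate it was 0.24 (edgeR adjusted p = 0.225) and 0.42 (0.287) against wt.

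Ifi213 and Ifi208, also called Pydc4 and Pydc3 after their pyrin domain, followed each other closely. Ifi213 had 19.9, 37.3 and 33.6 normalized CPM in wt, 39.9, 36.6 and 30.0 in Stat5a-/- and 89.2, 57.3 and 82.7 in Stat5b-/-. Ifi208 had 21.1, 35.8 and 32.8 in wt, 39.8, 36.4 and 30.7 in Stat5a-/- and 83.2, 62.4 and 82.6 in Stat5b-/-. For both, wt and Stat5a-/- overlapped and every Stat5b-/- library was higher than all others. Against wt the log2 fold changes in Stat5b-/- were 1.33 for Ifi213 (SE 0.22, edgeR adjusted p = 0.000243) and 1.34 for Ifi208 (SE 0.18, edgeR adjusted p = 5.77e-05). In Stat5a-/- they were 0.23 (95% interval -0.24 to 0.70, edgeR adjusted p = 0.448) and 0.25 (-0.15 to 0.65, 0.321). Between the knockout lines they were 1.10 (edgeR adjusted p = 0.00174) and 1.09 (0.000537). The promoter windows of this pair were identical, as was 18.1% of the 50-base stretches of Ifi208. With the T-cell covariate the values in Stat5b-/- against wt were -0.43 (edgeR adjusted p = 0.325) for Ifi213 and -0.043 (0.936) for Ifi208, no longer above wt.

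Ifi209 is also called Pyhin1. Its libraries had 46.6, 69.3 and 62.4 normalized CPM in wt, 80.1, 84.6 and 56.1 in Stat5a-/- and 99.0, 82.6 and 133.3 in Stat5b-/-. The Stat5a-/- libraries overlapped those of both other lines. The log2 fold change was 0.82 (SE 0.20, edgeR adjusted p = 0.0044) in Stat5b-/- and 0.31 (95% interval -0.12 to 0.74, edgeR adjusted p = 0.254) in Stat5a-/- against wt. Between the knockout lines it was 0.51 (95% interval 0.081 to 0.94, edgeR adjusted p = 0.0641), and it ranged from 0.30 (0.237) without Stat5b-/- replicate 3 to 0.66 (0.0334) without Stat5b-/- replicate 2. Without Stat5a-/- replicate 3 it was 0.36 (edgeR adjusted p = 0.172), and without wt replicate 1 it was 0.51 and passed the test (0.0491). It also passed without the filter on low counts (0.51, edgeR adjusted p = 0.000869), but not with DESeq2 (0.49, DESeq2 adjusted p = 0.0571). With the T-cell covariate it was -0.65 (edgeR adjusted p = 0.227) in Stat5b-/- against wt.

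Ifi203 and Mndal, whose models overlap, were also ordered wt, Stat5a-/-, Stat5b-/- without overlap. Ifi203 had 73.9, 103.1 and 90.9 normalized CPM in wt, 132.0, 139.5 and 105.8 in Stat5a-/- and 201.7, 176.8 and 217.2 in Stat5b-/-. Mndal had 39.5, 54.4 and 50.3 in wt, 68.3, 71.5 and 55.4 in Stat5a-/- and 87.8, 83.6 and 107.6 in Stat5b-/-. The lowest Stat5a-/- library of each gene was only just above the highest wt library. In Stat5b-/- against wt the log2 fold change was 1.15 for Ifi203 (SE 0.14, edgeR adjusted p = 2.22e-05) and 0.95 for Mndal (SE 0.15, edgeR adjusted p = 0.000149). In Stat5a-/- against wt it was 0.49 for Ifi203 (SE 0.14, edgeR adjusted p = 0.0146) and 0.44 for Mndal (SE 0.15, edgeR adjusted p = 0.0322). Both calls in Stat5a-/- were lost without wt replicate 1 (edgeR adjusted p = 0.0614 and 0.123), without Stat5a-/- replicate 1 (0.0592 and 0.108) or without Stat5a-/- replicate 2 (0.0722 and 0.125), and that of Mndal also without wt replicate 3 (0.0674). Between the knockout lines the log2 fold changes were 0.66 for Ifi203 (edgeR adjusted p = 0.00299) and 0.51 for Mndal (0.0154), the latter lost without Stat5b-/- replicate 3 (0.0543). With the T-cell covariate they were 0.21 (edgeR adjusted p = 0.611) and 0.052 (0.925) in Stat5b-/- against wt.

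Ifi204 and Ifi207 had few reads but the greatest log2 fold changes in Stat5b-/-. Ifi204, known for DNA sensing and macrophage differentiation, had 7, 17 and 12 reads in wt, 13, 14 and 4 in Stat5a-/- and 32, 46 and 43 in Stat5b-/-, which correspond to 0.44, 0.86 and 0.69, 0.91, 1.14 and 0.36, and 2.19, 3.14 and 3.28 normalized CPM. Only the Stat5b-/- line stood apart. The log2 fold change was 2.07 (SE 0.34, 95% interval 1.34 to 2.80, edgeR adjusted p = 0.000251) against wt and 1.80 (SE 0.35, edgeR adjusted p = 0.00159) against Stat5a-/-. For Stat5a-/- against wt it was 0.27 (95% interval -0.64 to 1.18, edgeR adjusted p = 0.658). Ifi207 had 15, 33 and 20 reads in wt, 26, 27 and 20 in Stat5a-/- and 57, 77 and 45 in Stat5b-/-. Its log2 fold change was 1.72 (SE 0.26, edgeR adjusted p = 0.000118) in Stat5b-/- and 0.60 (95% interval -0.019 to 1.22, edgeR adjusted p = 0.123) in Stat5a-/- against wt, and 1.12 (edgeR adjusted p = 0.00456) between the knockout lines. For these members the values stayed large with the T-cell covariate, at 1.64 (edgeR adjusted p = 0.246) and 2.02 (0.0618) in Stat5b-/- against wt, but did not pass the test.

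Mnda was the member with the fewest reads and did not pass the filter on low counts. It had 3, 8 and 3 reads in wt, 5, 2 and 6 in Stat5a-/- and 8, 9 and 6 in Stat5b-/-. Where it was tested, without the filter or with DESeq2, it was not called, with a log2 fold change in Stat5b-/- against wt of 1.00 (edgeR adjusted p = 0.229) and 1.02 (DESeq2 adjusted p = 0.302).

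**Figure D2:**
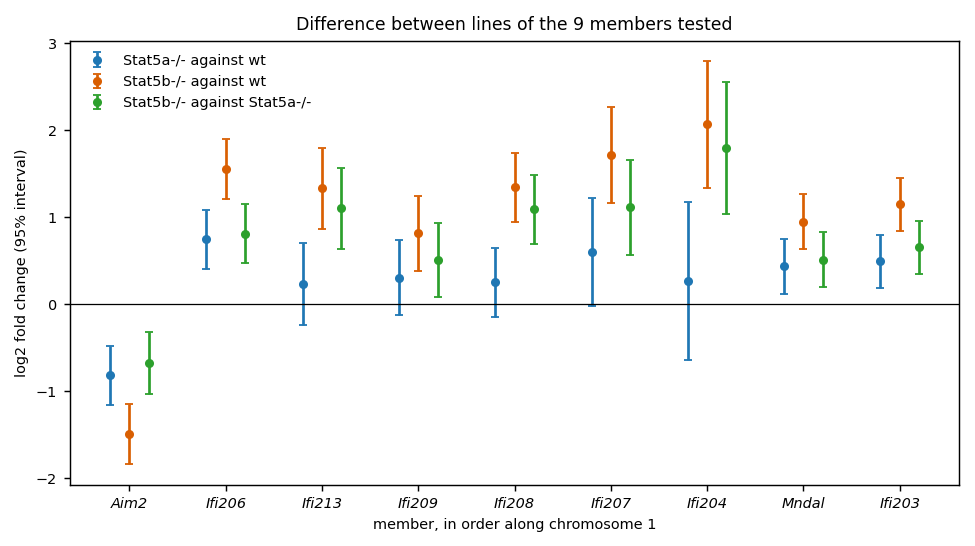
Log2 fold change (vertical axis) of the 9 tested members, in their order along chromosome 1 (horizontal axis), in the 3 comparisons; bars are 95% intervals from the edgeR fit. Aim2 is below 0 in all 3, and the other 8 have their highest value in Stat5b-/- against wt.

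Levels of different genes were compared per kb of exons, over the whole exon length. Since reads from shared stretches were dropped, the levels of genes with many of them, Mnda and Ifi209 above all, are too low on this scale, and the order of close neighbours is uncertain. In wt, Ifi206 (17.5 ± 3.56 normalized CPM per kb; SD, n = 3), Ifi209 (16.8 ± 3.29), Mndal (13.96 ± 2.24), Ifi203 (13.3 ± 2.19) and Aim2 (10.7 ± 0.647) formed the upper group, in which the library ranges of neighbours in the order overlapped. Ifi208 (5.69 ± 1.48) and Ifi213 (4.42 ± 1.34) followed, and Ifi207 (0.361 ± 0.106), Ifi204 (0.187 ± 0.0586) and Mnda (0.143 ± 0.0720) had the lowest levels. Ifi208 overlapped Ifi213 and Ifi204 overlapped Mnda, whereas gaps lay between Aim2 and Ifi208, between Ifi213 and Ifi207 and between Ifi207 and Ifi204. In Stat5b-/- the order changed, with Ifi206 at 51.7 ± 6.71 above all other members in each library, and Aim2 at 3.82 ± 0.589 below Ifi208 (14.5 ± 2.25) and Ifi213 (11.2 ± 2.46). As a share of the summed level per kb of the 10 members, Aim2 took 11.9% to 15.2% in wt, 5.23% to 6.13% in Stat5a-/- and 2.22% to 2.28% in Stat5b-/- libraries. The share of Ifi206 went the other way, from 20.6% to 21.8% in wt to 26.1% to 28.5% in Stat5a-/- and 29.4% to 31.6% in Stat5b-/-. Shares of one family are unaffected by the scaling of the libraries.

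**Figure D3:**
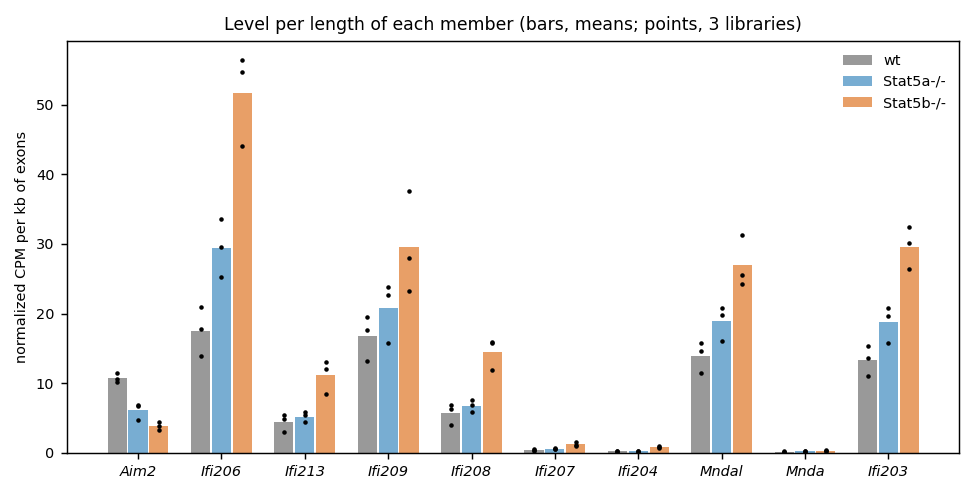
Normalized CPM per kb of exons (vertical axis, from 0) of the 10 members in the 3 lines. Bars are means and points the 3 libraries of a line. Ifi206 is the highest member in all 3 lines, narrowly so in wt, while Ifi204, Ifi207 and Mnda stay near 0 on this scale.

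The T-cell marker reads, which include genes of the T-cell receptor complex such as Cd3e and Trac, moved with the members other than Aim2. The summed level of the 9 members without Aim2 was 244.9, 366.8 and 326.1 normalized CPM in wt, 453.5, 474.6 and 357.7 in Stat5a-/- and 734.6, 606.1 and 802.7 in Stat5b-/- libraries. The T-cell marker sum in the same libraries was 863, 1175 and 1082, then 1682, 1750 and 1514, then 2715, 1906 and 2590. Expressed as a percent of the T-cell marker reads, the 9 members lay at 28.4% to 31.2% in wt, 23.6% to 27.1% in Stat5a-/- and 27.1% to 31.8% in Stat5b-/-, so that on this scale wt and Stat5b-/- overlapped. Of the T-cell markers, 15 of 16 were higher in Stat5b-/- and 8 of 16 in Stat5a-/- than in wt, in the same edgeR test, beside 24.2% and 19.8% of all genes. Replicates of a line were compared too. Aim2, Ifi206, Ifi213, Ifi209, Ifi208, Mndal and Ifi203 were each lowest, in all 3 lines, in the library with the fewest T-cell marker reads of that line, as were 11.1% of all genes tested. Ifi207 and Ifi204 were so in 2 lines and Mnda in 0, as were 25.3% and 38.2% of all genes tested. The full order of the 3 libraries was that of the T-cell markers in 2 of 3 lines for each tested member other than Aim2, and in 1 for Aim2, whose order between lines was the reverse of theirs. How many of all genes had such a full order was not counted. Ifi206 as a percent of T-cell marker reads was 4.91% to 5.45% in wt, 5.09% to 5.85% in Stat5a-/- and 6.15% to 7.05% in Stat5b-/-, and Ifi204 was 0.0515% to 0.0731%, 0.0238% to 0.0651% and 0.0808% to 0.165%, so that for both Stat5b-/- lay above the other lines. For Ifi208 it also lay above wt (3.07% to 3.27% against 2.44% to 3.04%), whereas it lay below wt for Ifi209 (3.65% to 5.15% against 5.40% to 5.90%) and Mndal (3.24% to 4.38% against 4.57% to 4.65%), and overlapped wt for Ifi203, Ifi207, Ifi213 and Mnda. Aim2 was 3.41% to 4.13%, 1.07% to 1.44% and 0.503% to 0.591%. Since the T-cell marker sums of the 3 lines did not overlap, the covariate also takes up differences between the lines, and in Stat5b-/- against wt it lowered the number of all genes called from 6397 to 2104. The tested myeloid markers Lyz2, Csf1r and Fcgr3 were also higher by over 2-fold in Stat5b-/- against wt (3 of 3). The part of the T-cell and myeloid reads in the rise of the members was not tested. In bulk RNA, fewer cells of a type and less RNA per cell cannot be told apart.

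**Figure D4:**
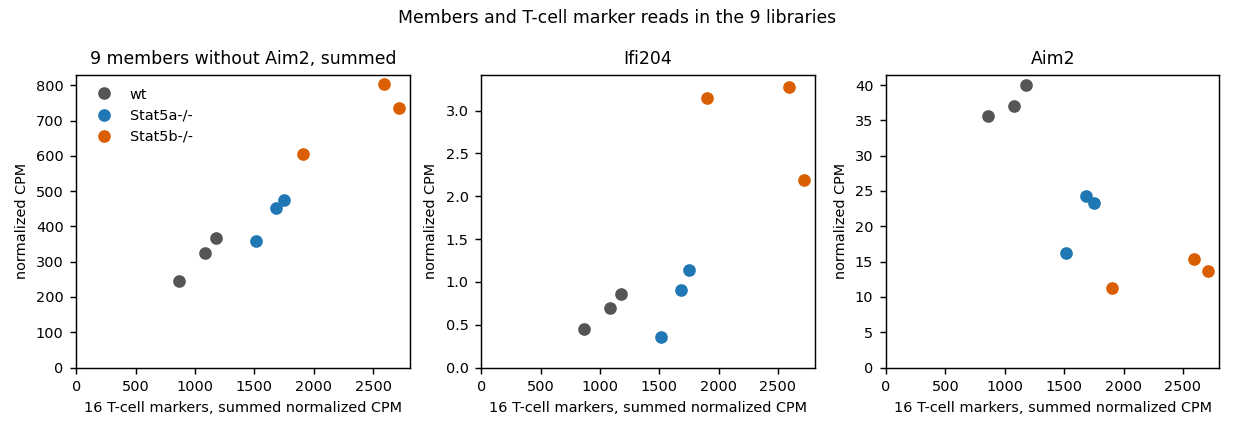
Normalized CPM of the 9 members without Aim2, summed (left), Ifi204 (middle) and Aim2 (right) on the vertical axes, against the summed normalized CPM of 16 T-cell markers on the horizontal axes. Each point is 1 of the 9 libraries, coloured by line. The summed members run from 245 to 803 normalized CPM along with the T-cell markers, Ifi204 is higher only in Stat5b-/-, and Aim2 is highest in wt, where the T-cell marker sums are lowest.

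Other p200 genes of the same cluster gave few reads, apart from Ifi214, which had 62 to 253 reads in a library. Ifi214 had 3.93 to 7.17 normalized CPM in wt, 5.95 to 6.57 in Stat5a-/- and 12.2 to 19.3 in Stat5b-/-. It differed by a log2 fold change of 1.44 (SE 0.22, edgeR adjusted p = 0.000119) in Stat5b-/- against wt and 0.075 (edgeR adjusted p = 0.834) for the Stat5a-/- line, near the values of Ifi208 and Ifi213. Ifi205 had 0.14 to 1.92 normalized CPM over all libraries and was called in 0 of the 3 comparisons (edgeR adjusted p = 0.0773 in Stat5b-/- against wt). Ifi203-ps had between 0 and 7 reads in a library, and Ifi202b had 0 in each of the 9.

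Genes that act with the members were examined in 3 lists. Of 15 inflammasome genes 12 were tested, and in Stat5b-/- against wt 7 of them rose and 0 fell, beside 24.2% and 22.0% of all genes. Pycard, which encodes ASC, the adaptor of Aim2, rose by a log2 fold change of 1.45 (edgeR adjusted p = 0.000664), from 1.46 to 3.64 normalized CPM in wt to 7.27 to 9.29 in Stat5b-/-. It also rose in Stat5a-/- against wt, by 0.92 (edgeR adjusted p = 0.021), and was not called between the knockout lines (0.54, 0.129). Gsdmd, the pore-forming protein that caspase-1 cleaves, rose by 0.58 (edgeR adjusted p = 0.00274) in Stat5b-/- against wt and was at -0.028 (0.896) in Stat5a-/- against wt. Nlrp1b, a separate inflammasome sensor, had 2 or 3 reads in wt libraries and 81 to 134 in the knockout libraries, and Nlrp1a had 0 in wt and 15 to 26 in the knockout libraries. Nlrc4 and Txnip rose in both knockout lines, by log2 fold changes of 1.45 and 0.29 in Stat5a-/- (edgeR adjusted p = 0.00123 and 0.032) and 1.38 and 0.76 in Stat5b-/- (0.00139 and 3.16e-05). In Stat5a-/- against wt, 7 of the 12 rose and 1 fell, beside 19.8% and 16.3% of all genes. Il1b, Il18 and Mefv had too few reads to be tested.

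Of 13 cytosolic DNA genes 12 were tested, and 7 rose and 1 fell in Stat5b-/- against wt, with 5 and 1 for the Stat5a-/- line, beside the same shares of all genes. Tmem173, which encodes STING, rose in both lines but more in Stat5a-/-, at 122.4 to 143.1 normalized CPM in wt, 260.7 to 302.2 in Stat5a-/- and 166.4 to 180.1 in Stat5b-/-, and the difference between the knockout lines was a log2 fold change of -0.68 (edgeR adjusted p = 0.000176). Cgas, which makes the ligand of STING, had the same order, at 0.982 to 1.52, 8.67 to 9.19 and 3.83 to 5.64 normalized CPM. Zbp1, a sensor of nucleic acids in the Z form, followed the order of the rising members, with log2 fold changes of 1.21 in Stat5a-/- (edgeR adjusted p = 5.88e-05) and 2.13 in Stat5b-/- (2.59e-07). Ifi35 rose in both lines (0.68 and 0.88, edgeR adjusted p = 0.00209 and 0.000229), Ikbke in Stat5b-/- (0.81, 0.000224), and Rnaseh2a, a subunit of ribonuclease H2, fell in both (-0.37 and -0.34, 0.0129 and 0.0167).

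Of 13 interferon receptors and factors, all of them tested, 10 rose and 2 fell in Stat5b-/- against wt, beside 24.2% and 22.0% of all genes. In Stat5a-/- against wt 4 rose and 3 fell, counts near the 19.8% and 16.3% of all genes. Irf7, a factor of the interferon response, rose by log2 fold changes of 1.02 in Stat5a-/- (edgeR adjusted p = 0.000128) and 2.34 in Stat5b-/- (3.61e-08). Irf1 rose by 0.99 (edgeR adjusted p = 2.87e-06) and 1.61 (2.2e-08). Irf9, a subunit of the complex that binds interferon-stimulated response elements, rose in Stat5b-/- by 1.38 (edgeR adjusted p = 3.25e-07) and was at 0.24 (0.104) in Stat5a-/-, the same pattern of calls as Ifi208 and Ifi213. The receptor genes Ifnar2 and Ifngr1 rose in both lines, by 0.57 and 0.48 in Stat5a-/- (edgeR adjusted p = 0.000914 and 0.00115) and 0.75 and 0.66 in Stat5b-/- (7.55e-05 and 6.83e-05).

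**Figure D5:**
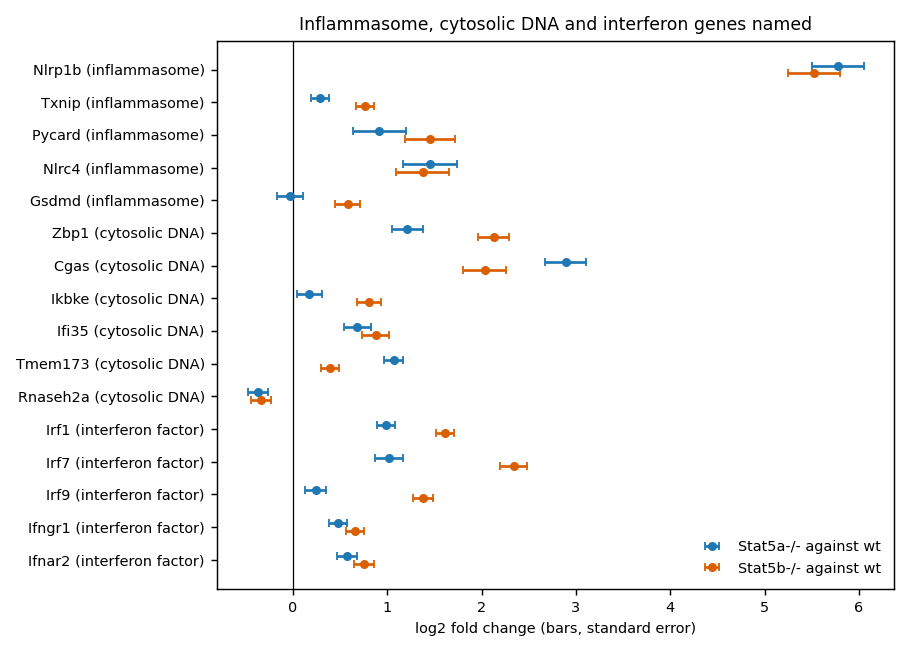
Log2 fold change (horizontal axis) of the named inflammasome, cytosolic DNA and interferon genes (vertical axis) in Stat5a-/- and Stat5b-/- against wt; bars are standard errors. Nlrp1a, with 0 reads in wt, is among the genes left out. Zbp1, Irf7 and Irf9 are higher in Stat5b-/-, and Cgas and Tmem173 in Stat5a-/-.

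Of the 20 nearest tested genes, 10 on each side and with Ifi205 among them, 7 rose and 5 fell in Stat5b-/- against wt, beside 24.2% and 22.0% of all genes, with a median log2 fold change of 0.23. Among those on the Aim2 side, Slamf9 fell from 23.3 to 25.6 normalized CPM in wt to 5.42 to 8.95 in Stat5b-/-, whereas Pea15a rose from 2.86 to 4.45 to 7.31 to 12.8. On the other side, Kmo rose from 0.571 to 0.809 to 2.81 to 4.80, and was higher still in Stat5a-/- at 8.75 to 11.8, an order that no member had. Opn3 had the same order, at 0.571 to 0.909 normalized CPM in wt, 5.59 to 7.57 in Stat5a-/- and 2.67 to 3.96 in Stat5b-/-. Fmn2, also on that side, fell from 6.58 to 9.65 in wt to 0.140 to 1.71 in Stat5a-/- and to at most 1 read in a Stat5b-/- library. On the side of Aim2, Fcrl6 had at most 1 read in a wt library, 2.98 to 4.80 normalized CPM in Stat5a-/- and 0.343 to 0.478 in Stat5b-/-. Dusp23 rose in both knockout lines (log2 fold changes of 1.12 and 0.71, edgeR adjusted p = 0.000904 and 0.0146), and Gm37145 fell in Stat5b-/- (-0.89, edgeR adjusted p = 0.00471).

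Outside the cluster, the genes whose log2 level was most like that of the summed 10 members were Kbtbd11, Cytip, Ipcef1, Tent5a and Trim30d, each with a Pearson correlation of 0.99 over the 9 libraries. The points share libraries and lines, and the T-cell marker reads move along them too.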

How the data were processed

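RNA-seq was measured in 9 libraries of 50 bp single-end reads. After trimming, the authors aligned them with STAR to GRCm38 (GENCODE M13) and deposited raw counts per gene from featureCounts 1.5.1. Its header names no strand, multi-mapping or overlap option, so reads on several places or genes were dropped and strands were not separated. Symbols of 50376 of 50686 genes came from a later GENCODE release, and Mnda was matched by its synonym Ifi211.

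R 4.3.3 with edgeR 4.0.16 was used for TMM normalization, filtering with filterByExpr and the quasi-likelihood test (glmQLFit, glmQLFTest). All 9 libraries entered 1 fit over 13852 genes, with Benjamini-Hochberg adjustment. Genes were called at an adjusted p under 0.05. The steps were tested on simulated data. The genes named were all members, the knocked-out genes, up to 6 genes per list with the smallest p in Stat5b-/- against wt, neighbours past 0.05 and a log2 fold change of 1, and the 5 genes most like the members; 1 of the list genes is not reported here. Members and lists were chosen with earlier results of these data known. Alternatives were DESeq2 1.42.0, RLE normalization, other filters, thresholds and samples in the fit, a replicate block, the T-cell covariate and, chosen after seeing the data, a GC offset. The 95% intervals come from this fit and cover the spread between technical replicates only.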

Additional observations from a re-analysis of the deposited data

How the results depend on the processing

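DESeq2, RLE normalization, a mean of at least 10 counts and fitting only the 2 genotypes compared kept the direction and call of every tested member in the 3 comparisons. Over these, the other fits and the fits without 1 library, 421 member values kept direction and call. With the same sign 24 lost the call and 6 gained it, and 8 changed sign, of which 3 lost the call and 1 gained it. The T-cell covariate moved most. With it 2 members were called in Stat5a-/- against wt and 1 in each of the other comparisons, and all genes called were 4300 in Stat5a-/- against wt (4993 without it), 2104 in Stat5b-/- against wt (6397 without it) and 2039 between the knockout lines (4698 without it). The sign then changed in Stat5a-/- against wt for Ifi208 (-0.36), Ifi209 (-0.35) and Ifi213 (-0.54), in Stat5b-/- against wt for Ifi208 (-0.043), Ifi209 (-0.65) and Ifi213 (-0.43), and between the knockout lines for Ifi209 (-0.30). The cause was not tested. In Stat5a-/- against wt, leaving out 1 library at a time gave -0.044 (without Stat5a-/- replicate 2) to 0.55 for Ifi204. Leaving out 1 library at a time gave 2 to 4 members called in Stat5a-/- against wt, 9 to 9 in Stat5b-/- against wt and 7 to 9 between the knockout lines, while all genes called ranged from 3960 to 5357, 5311 to 6837 and 3706 to 4786. A limit of over 2-fold left 0, 7 and 4 members. With the GC offset 6, 9 and 9 members were called, and all genes called rose to 6107, 7577 and 5945 from 4993, 6397 and 4698. Same-numbered replicates of different lines showed no shared deviation (mean correlation -0.13 over 9 pairs, 0.06 over 18 others). The replicate block called 3, 9 and 8 members and 4313, 5754 and 3895 of all genes, losing only Mndal in Stat5a-/- against wt (edgeR adjusted p = 0.0515). The depth limits Mnda, Ifi204 and Ifi207, which had at most 77 reads in a library.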
